A study of Mus musculus with 112 samples.

Results

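The cytosolic ribosomal protein genes were followed across a panel of mouse mammary tumours. A gene was counted as a member if its only platform symbol had the form Rpl or Rps with a number, or was Rplp0, Rplp1, Rplp2 or Rpsa, with S6 kinases and pseudogenes left out. The rule found 45 genes, 24 of the large and 21 of the small ribosomal subunit, among 18193 genes that had a probe set with 1 symbol. Of these, 44 were measured on array A (MOE430A) and 3 on array B (MOE430B), with Rpl22 and Rps3 on both and Rps16 on array B only. Each gene was read from its brightest probe set. Rplp1 and Rps27a were not analysed here, since no probe set used named them alone. One gene of the right symbol form, Rps4l, was left out because RefSeq lists it as a pseudogene.

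The tumours arose spontaneously in mice that carried the MMTV-PyMT transgene, the polyoma middle T antigen under the mouse mammary tumour virus promoter, which is active in mammary epithelium. The mice came from AKXD x PyMT crosses with 18 AKXD sublines, numbered 2, 3, 7, 9, 10, 11, 13, 14, 16, 18, 20, 21, 22, 23, 24, 25, 27 and 28. AKXD is a set of recombinant inbred lines derived from AKR/J and DBA/2J. There were 3 tumours per subline and 4 in sublines 2 and 25, 56 in all, each on 2 arrays. All groups carried the transgene, no subline was a control, and the labels used here gave neither age nor tumour size. Each subline was therefore set against the other sublines. The labels number the tumours of a subline as biological replicates and do not say whether each came from its own mouse, so p-values measure the spread between these tumours.

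A cytosolic ribosome joins a small subunit, which reads the messenger RNA, to a large subunit, which forms the peptide bond, and each of its proteins is needed in about the same number. The messages of these genes are among the most abundant in growing cells, and many begin with a terminal oligopyrimidine tract, which places their translation under control of the mTOR pathway. In tumours, ribosome production is known for its link to growth signalling and to Myc.

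Of the 56 arrays A, 4 stood apart and were left out by the rule, the 3 of subline 23 and tumour 3 of subline 25, which left 52 tumours in 17 sublines. On array B, tumour 3 of subline 11, tumour 2 of subline 23 and tumour 3 of subline 25 were left out. All 10 luminal epithelial markers were well above the controls for absent RNA, with means of 9.02 to 13.12 on the log2 scale against at most 5.21 for those controls. Of the marker lists, the skeletal muscle genes varied most between tumours of a subline, and their mean deviation ran from -3.30 to 2.91. In whole tumours, fewer cells of a type and less RNA per cell cannot be told apart.

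The ribosomal protein messages varied little, both among sublines and between tumours of a subline. On array A the median member had a level of 13.26 on the log2 scale, and 33 of the 44 had a mean of 12 or more. The range of the 17 subline means had a median of 0.188 over the members, against 0.329 over all 22626 probe sets and 0.196 over the 96 probe sets brighter than the median member. The spread between tumours of a subline had a median SD of 0.0807 over the members, 0.147 over all probe sets and 0.0763 over those 96 bright ones. By range and SD the members' spread was thus near that of the 96 bright probe sets. That set includes the brighter members themselves, so the likeness is partly built in. In 37 of the 44 members the highest and the lowest subline mean lay less than 0.3 apart. The share of variance between sublines, given as the intraclass correlation, had a median of 0.0376 over the members and 0.0482 over all probe sets. Over the 96 bright probe sets it was 0.106, so in this measure the members lay below the bright set.

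**Figure D1:**
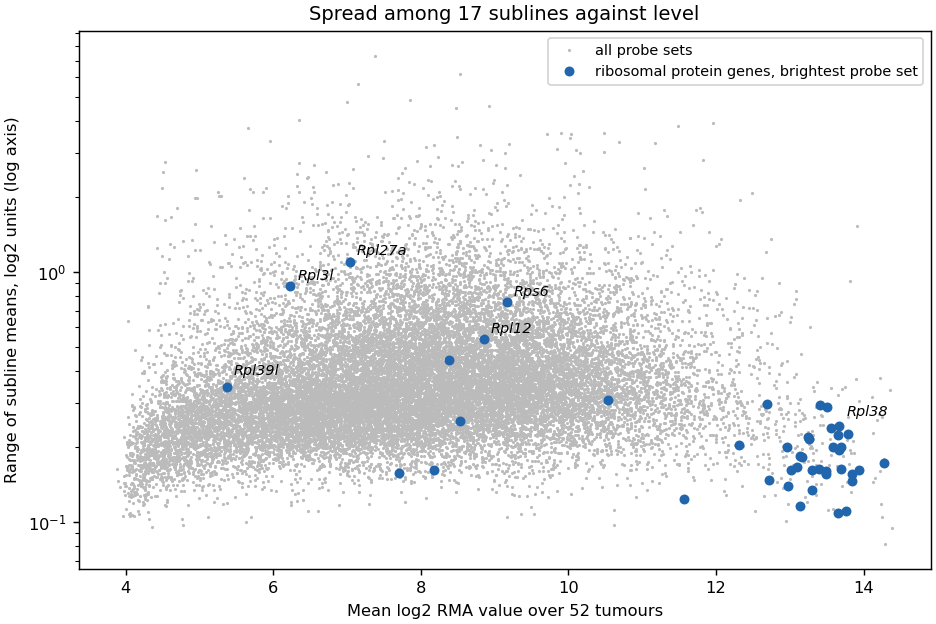
Range of the 17 subline means (vertical, log2 units on a log axis) against the mean level (horizontal, log2 RMA value over 52 tumours) for all 22626 probe sets in grey and the 44 members in blue. The 33 members with a mean of 12 or more form a low group at the right, and Rps6 stands at a range of 0.76.

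1 of the 44 members differed among sublines on array A, Rps6, by limma's moderated F test with adjusted p under 0.05. Over all probe sets of the array, 1.74% passed. At an unadjusted p under 0.05 there were 3 members, Rps6, Rpl38 and Rps7, where 15.2% of all probe sets had one. On array B none of the 3 members passed the limma test, none had an unadjusted p under 0.05, while 0.671% of all probe sets were called and 11.0% had such a p. These counts set the background for what follows. At the adjusted threshold on array A, 1 of 44 members was near the share of all probe sets. At the unadjusted threshold there, 3 of 44 was a smaller share than the 15.2% of all probe sets.

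The promoters of the genes that the results turn on are shown here because the called probe sets belong to Rps6, Rps9 and Rps28, because Rps18 and Rpl11 followed the other members most closely, and because Rps27l and Rpl3l, paralogs of Rps27 and Rpl3, did not. Each sequence is the coding strand from RefSeq, build GRCm38.p6, and has 120 bases, with the annotated start at base 101. Capitals mark each run of at least 5 pyrimidines that opens with C and reaches within 5 bases of the start.
Rps6 (chr4:86857348-86857467, minus strand): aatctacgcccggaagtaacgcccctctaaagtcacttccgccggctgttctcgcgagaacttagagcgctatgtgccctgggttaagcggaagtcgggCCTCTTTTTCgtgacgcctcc
Rps9 (chr7:3703941-3704060, plus strand): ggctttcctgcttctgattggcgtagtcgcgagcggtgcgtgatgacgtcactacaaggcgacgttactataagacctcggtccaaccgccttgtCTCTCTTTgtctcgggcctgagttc
Rps28 (chr17:33824543-33824662, minus strand): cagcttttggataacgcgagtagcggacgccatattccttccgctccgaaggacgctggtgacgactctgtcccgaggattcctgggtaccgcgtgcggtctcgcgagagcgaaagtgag
Rps18 (chr17:33955646-33955765, minus strand): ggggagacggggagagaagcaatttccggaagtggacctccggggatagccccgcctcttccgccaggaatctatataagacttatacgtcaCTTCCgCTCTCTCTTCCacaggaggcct
Rpl11 (chr4:136053374-136053493, minus strand): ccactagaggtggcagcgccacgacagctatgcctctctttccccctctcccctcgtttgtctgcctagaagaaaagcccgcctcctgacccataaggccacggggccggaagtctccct
Rps27l (chr9:66945986-66946105, plus strand): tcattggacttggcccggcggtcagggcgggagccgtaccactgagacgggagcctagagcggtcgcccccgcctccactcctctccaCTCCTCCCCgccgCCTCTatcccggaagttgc
Rpl3l (chr17:24727726-24727845, plus strand): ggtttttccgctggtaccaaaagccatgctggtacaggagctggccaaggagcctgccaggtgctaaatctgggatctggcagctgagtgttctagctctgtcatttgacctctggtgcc

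RefSeq promoter windows of 300 bases were at hand for 40 of the 45 members, 48 windows in all because some genes have several starts. At least 1 such pyrimidine run was in 24 of the 48 windows (50.0%) and in 24.8% of all 32851 windows. The letters CGGAAGT, the core bound by ETS factors, were found on either strand in 13 of the 48 (27.1%) and in 6.42% of all windows. The Rps6 stretch held 3 copies of it, the Rps18 stretch 2, and the Rpl11 and Rps27l stretches 1 each. CCATNTT, the core of the YY1 site, was in 29.2% of the member windows and 16.1% of all. The E-box CACGTG, which Myc binds, was in 10.4% against 7.15%, and TATAAA in 10.4% against 13.6%. The searches covered both strands except for the pyrimidine run, and a match of letters is no evidence of binding.

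Rps6 encodes the small subunit protein that S6 kinases phosphorylate downstream of mTOR. Its brighter probe set with no other symbol (1416142_at) had a mean of 9.16 and varied 1.69-fold among sublines. The lowest subline was 25, with tumours at 8.99, 8.50 and 8.91 on the log2 scale. Subline 2 was next, at 8.58, 8.96, 8.97 and 8.84. At the other end stood subline 14, with 9.61, 9.51 and 9.54, and subline 10, with 9.71, 9.31 and 9.59. The means were 8.80 ± 0.26 (SD, n = 3) in subline 25 and 9.56 ± 0.05 (SD, n = 3) in subline 14. The adjusted p of limma's F test was 0.000628, and the intraclass correlation was 0.627. The adjusted p was 0.191 without the tumours numbered 1, 0.134 without those numbered 3 and 0.127 with all 56 arrays, so the call did not hold in those fits.

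The upper sublines 3, 21, 10 and 14 had means of 9.51 to 9.56, and their 12 tumours lay between 9.26 and 9.77. The 7 tumours of sublines 25 and 2 lay between 8.50 and 8.99. Both sets were chosen by the order of these same values, so the gap between them is no separate evidence. The share of all probe sets with such a gap was not computed. The other 11 sublines filled the span between these sets. Neighbours in the order did not differ beyond their spread, since the widest of the 16 gaps, from subline 20 to subline 9, was 0.142 against a pooled SD within sublines of 0.181.

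**Figure D2:**
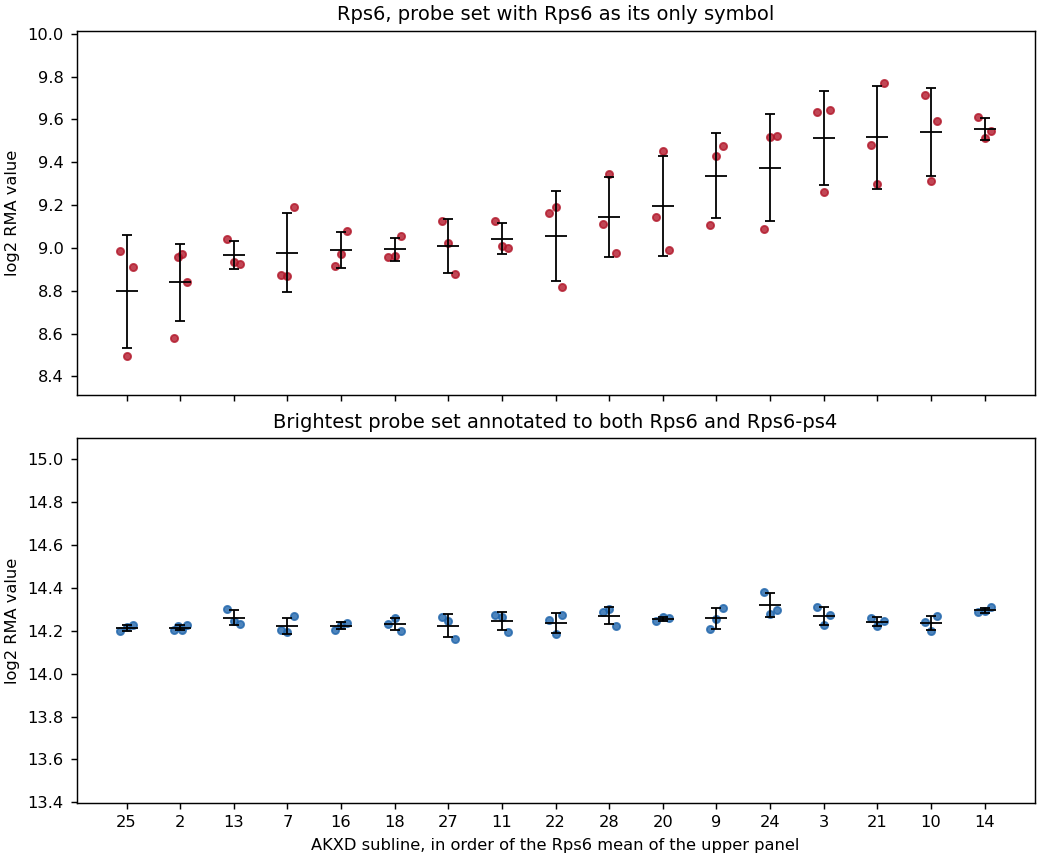
Log2 RMA values of each tumour (points) with the subline mean and SD (bars) for the Rps6 probe set (upper) and for the brightest probe set annotated to both Rps6 and the pseudogene Rps6-ps4 (lower), with sublines in the same order and axes of the same span. The upper panel climbs from 8.80 in subline 25 to 9.56 in subline 14, while all tumours in the lower panel lie between 14.16 and 14.38.

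Other probe sets that carry the Rps6 symbol did not share the call. The 9 probe sets annotated to both Rps6 and Rps6-ps4 had limma F test adjusted p from 0.478 to 0.870. The brightest of them had a range of subline means of 0.10, from 14.21 in subline 25 to 14.32 in subline 24. Across the 52 tumours it was nevertheless related to the Rps6 probe set, with Pearson's r of 0.478 and Spearman's rho of 0.548. The permutation p were 0.00033 and 3e-05, or 0.00044 and 4.8e-05 after Benjamini-Hochberg adjustment over the 8 coefficients of 4 such relations, and r was 0.550 without the 2 farthest tumours. The permutations shuffled tumours without regard to subline, so likeness of tumours within a subline can make such p too small. No value within sublines was computed for the 4 relations. A further Rps6 probe set (1453466_at) had a mean of 4.62, at the level of the controls for absent RNA, and an adjusted p of 0.926.

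Single sublines were then set against the mean of the others, 748 differences of 44 members in 17 sublines. 1 of them passed limma's test, Rps6 in subline 21. Its tumours read 9.48, 9.30 and 9.77, and the mean of 9.52 stood above the 9.15 of the other sublines by 0.37 ± 0.106 (SE, 95% interval 0.156 to 0.583), with an adjusted p of 0.0415. In that subline 2.41% of all probe sets were called higher and 0.99% lower. High Rps6 was not particular to it: means were higher in sublines 14 (9.56) and 10 (9.54) and nearly equal in 3 (9.51), without a call. The adjustment ran within each subline's comparison, so a call also depends on how many probe sets differ there. In sublines 14, 10 and 3, 0.00884%, 0.0309% and 0.0354% of all probe sets were called higher. Without tumour 1 of subline 21 the Rps6 difference of that subline was 0.388 with an adjusted p of 0.14, and without tumour 3 it was 0.242 with an adjusted p of 0.33. The next largest differences of members in subline 21 were not called. Rpl35, at the exit tunnel of the large subunit, stood 0.115 ± 0.0644 (SE) above the other sublines (adjusted p 0.332) and Rps28 0.0861 ± 0.0505 (0.353). Rpl3l stood at -0.464 ± 0.270 (0.350), Rps15 at -0.123 ± 0.0514 (0.178) and Rps29, a small zinc-binding protein of the small subunit, at -0.108 ± 0.0389 (0.109). Without the tumours numbered 3 in every subline the Rps28 difference was -0.0170, and with all 56 arrays those of Rps15 and Rps29 were 0.0134 and 0.0430, each with the other sign. In the fit of all 56 arrays the mean of the other sublines included the arrays that stood apart.

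Subline 21 also had the lowest mean scores of 7 of the 9 lists scored, skeletal muscle (-1.53 ± 1.32, SD), adipocytes (-0.81 ± 0.19), B and plasma cells (-0.30 ± 0.02), macrophages (-0.24 ± 0.41), T cells (-0.10 ± 0.13), luminal epithelium (-0.37 ± 0.53) and proliferation (-0.19 ± 0.36), each with n = 3. In the other sublines the muscle score had means from -1.16 to 1.58. The luminal score was low in tumour 1 (-0.98) and not in tumours 2 (-0.04) and 3 (-0.10), and the proliferation score likewise (-0.60, 0.09 and -0.07). Without tumour 1 their means were -0.07 and 0.01, no longer the lowest. The muscle score was -3.05 in tumour 3, against -0.76 and -0.78 in tumours 1 and 2. The adjusted p for Rps6 in subline 21 was 0.0975 once the adipocyte, T cell, B cell and muscle scores were in the model, and 0.164 with the difference between 3′ and 5′ Gapdh probe sets. The F test of Rps6 over all sublines stayed called in both models, with adjusted p of 0.000195 and 0.000237.

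Rps6 lies on chromosome 4 at chr4:86854099-86857367 (GRCm38.p6). Of 6 genes measured on array A within 1 Mb, 1 was called among sublines, Rraga, a Rag GTPase that carries amino acid signals to mTOR (adjusted p 0.0278). Its highest mean was in subline 13 and its lowest in subline 18, unlike the order of Rps6. None of 5 neighbours on array B was called by limma. Over all probe sets 1.74% were called on array A and 0.671% on array B.

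The arrays also carried further probe sets for 22 of the members on array A, 95 probe sets in all. Read in full, 3 of the 95 were called by limma's F test, the one of Rps6 and one each of Rps9 and Rps28, which were singled out after their values were seen. Over all probe sets of array A 1.74% were called, and with so few calls the count does not set the members apart. Rps9 is a small subunit protein close to the messenger RNA entry, and its dimmer probe set (1426958_at) differed among sublines with an adjusted p of 0.00308. Its 4 tumours in subline 2, which had the lowest mean, lay between 7.83 and 8.11, and its 3 in subline 28, which had the highest, between 8.49 and 9.01. The means were 7.97 ± 0.12 (SD, n = 4) and 8.73 ± 0.26 (SD, n = 3). The call was lost without the tumours numbered 1, 2 or 3, with adjusted p from 0.0859 to 0.255.

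The brightest Rps9 probe set (1433689_s_at) had subline means between 12.93 and 13.09 and an adjusted p of 0.842. The Rps9 pair was weakly related across the 52 tumours, with r of 0.322 (permutation p 0.0193, adjusted 0.0221) and rho of 0.292 (permutation p 0.0352, adjusted 0.0352). Without the 2 farthest tumours r was 0.285. None of the 27 genes measured on array A, and none of the 16 on array B, within 1 Mb of Rps9 (chr7:3703954-3706897) was called by limma.

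Rps28 is a small subunit protein at the messenger RNA exit. Its second probe set (1454778_x_at) was lowest in subline 24, with tumours from 13.32 to 13.51, and highest in subline 21, from 13.63 to 13.92, with an adjusted p of 0.0209. The means of 13.40 ± 0.10 and 13.74 ± 0.15 (n = 3 each, SD) differed by 0.34. This call too was lost without the tumours numbered 1, 2 or 3 (adjusted p 0.269 to 0.540), with all 56 arrays (0.573) and with the composition scores in the model (0.0504). The brightest probe set (1423763_x_at) was also lowest in subline 24, at 13.52 ± 0.09, and its highest mean was in subline 10, but its adjusted p was 0.448. That pair moved together across tumours, with r of 0.828 and rho of 0.785 (permutation p 1e-05 for each, the smallest 100000 resamples can give; adjusted 2e-05), and r was 0.792 without the 2 farthest tumours. Within 1 Mb of Rps28 (chr17:33823036-33824562), 2 of 58 genes on array A were called, Ring1 and H2-Ea, and 2 of 32 on array B, Rab11b and Vps52. The shares of all probe sets called were 1.74% on array A and 0.671% on array B. The called array B probe sets of Rab11b and Vps52 had their highest mean in subline 21, as had the called Rps28 probe set. Their lowest means were in sublines 11 and 23. On array A the probe sets of Rab11b and Vps52, with means of 10.56 and 8.92, were highest in sublines 20 and 22. Neither was called there (limma F test adjusted p 0.826 and 0.233). Ring1 was highest in subline 14 and lowest in 28. The brightest H2-Ea probe set was highest in subline 24 and lowest in 21. Any tie between these genes and Rps28 was not tested.

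**Figure D3:**
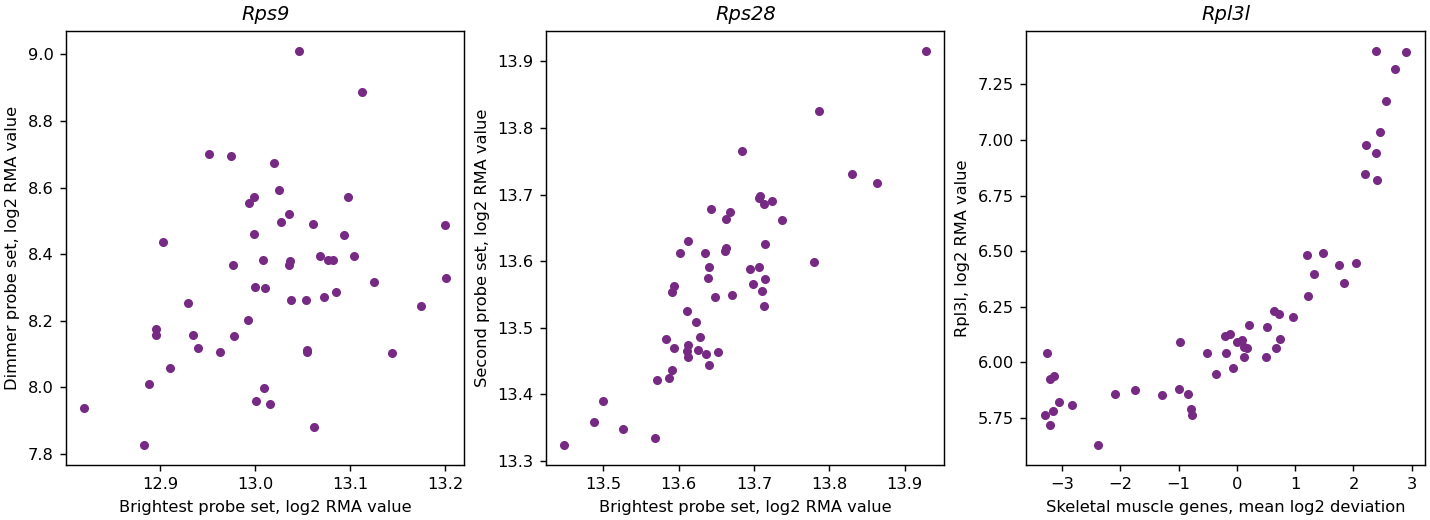
Each point is 1 of 52 tumours: the dimmer against the brightest probe set of Rps9 (left), the second against the brightest probe set of Rps28 (middle), both in log2 RMA values, and Rpl3l against the mean deviation of the skeletal muscle genes (right). The Rps28 pair (r = 0.828) and Rpl3l with muscle (r = 0.830) follow each other more closely than the Rps9 pair (r = 0.322).

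Among the other members the smallest p belonged to Rpl38, a large subunit protein known from a mouse skeletal mutant. Its tumours ran from 13.51 to 13.87 with a median of 13.67. The lowest subline, 27, had a mean of 13.54 ± 0.03 and the highest, 14, of 13.78 ± 0.10 (n = 3 each, SD), with an adjusted p of 0.256. Rps7, which binds Mdm2, ran from 13.53 to 13.80 with an adjusted p of 0.323. Its subline means went from 13.57 ± 0.004 in subline 7 to 13.77 ± 0.02 in subline 20 (n = 3 each, SD).

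The stalk proteins, Rpsa and some further members gave the same picture. Rplp0, the base of the stalk that recruits elongation factors, had subline means from 13.07 ± 0.12 in subline 21 to 13.26 ± 0.03 in subline 14 (n = 3 each, SD), with an adjusted p of 0.862. Rplp2, a stalk protein carried by Rplp0, went from 13.58 ± 0.13 to 13.78 ± 0.07, with an adjusted p of 0.842. Rpsa, also known as a laminin receptor, went from 13.29 ± 0.09 in subline 25 to 13.58 ± 0.10 in subline 28, with an adjusted p of 0.769. Rpl13a, released from the ribosome in the interferon response, had an adjusted p of 0.421, Rpl6 of 0.563 and Rps15 of 0.566. The Benjamini-Hochberg adjustment of limma's F test ran over all probe sets of the array in each case.

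Some members had a wide range of subline means without a call. Rpl27a had the widest, from 6.53 ± 0.45 in subline 27 to 7.63 ± 0.44 in subline 11 (n = 3 each, SD), with a pooled SD within sublines of 0.377 and an adjusted p of 0.531. The probe set read was the brightest one with Rpl27a as its only symbol. Rpl12, which sits at the stalk base, ranged over 0.54, from 8.55 ± 0.11 in subline 18 to 9.09 ± 0.23 in subline 28, with an adjusted p of 0.442. Its pooled SD within sublines was 0.177.

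The paralogs behaved differently from one another. Rpl3l is known as the muscle form of the large subunit protein Rpl3. Its value ranged between tumours from 5.63 to 7.40, while the subline means went from 5.79 ± 0.03 in subline 21 to 6.67 ± 0.74 in subline 24, with an adjusted p of 0.853. There were 9 tumours with Rpl3l above 6.8, from 8 sublines. They were also the 9 with the highest skeletal muscle scores, at least 2.20, whereas the other 43 had scores of at most 2.05 and Rpl3l of at most 6.49. Over the 52 tumours r between Rpl3l and the muscle score was 0.830 and rho was 0.922 (permutation p 1e-05 for each, the smallest possible; adjusted 2e-05), and r was 0.844 without the 2 farthest tumours.

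Rps27l, a paralog of Rps27 known to respond to p53, had subline means from 12.54 ± 0.17 in subline 20 to 12.84 ± 0.12 in subline 3 (n = 3 each, SD), with an adjusted p of 0.827. Rpl39l, the testis form of Rpl39, had a mean of 5.37, not far above the highest control for absent RNA at 5.21, and an adjusted p of 0.419. On array B, Rps3 had subline means from 8.50 to 9.24 (adjusted p 0.567) and Rpl22 from 13.10 to 13.42 (adjusted p 0.815). Rps16 had a mean of 5.10 there, within the 5.04 to 5.44 of the absent controls, so its level was not resolved.

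Each 95% interval bounds a single difference of array values, without correction for the number of intervals. Over the 561 differences of the 33 bright members, the largest difference from the other sublines was 0.189, and no bound of a 95% interval lay farther from 0 than 0.343. That bound, for Rps27l in subline 20, is 1.27-fold. It holds for these probe sets and not for the amount of RNA, since other probe sets of the same genes could range more widely. Of the 22 members with several probe sets on array A, the second brightest had the wider range of subline means in 11. For Rpl13a the range was 0.236 on the brightest probe set, with a mean of 13.56, and 0.494 on one with a mean of 10.61. For Rpl41, a short large subunit protein, it was 0.173 on the brightest and 0.347 on the next. Whether the brightest probe sets were near saturation was not tested.

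**Figure D4:**
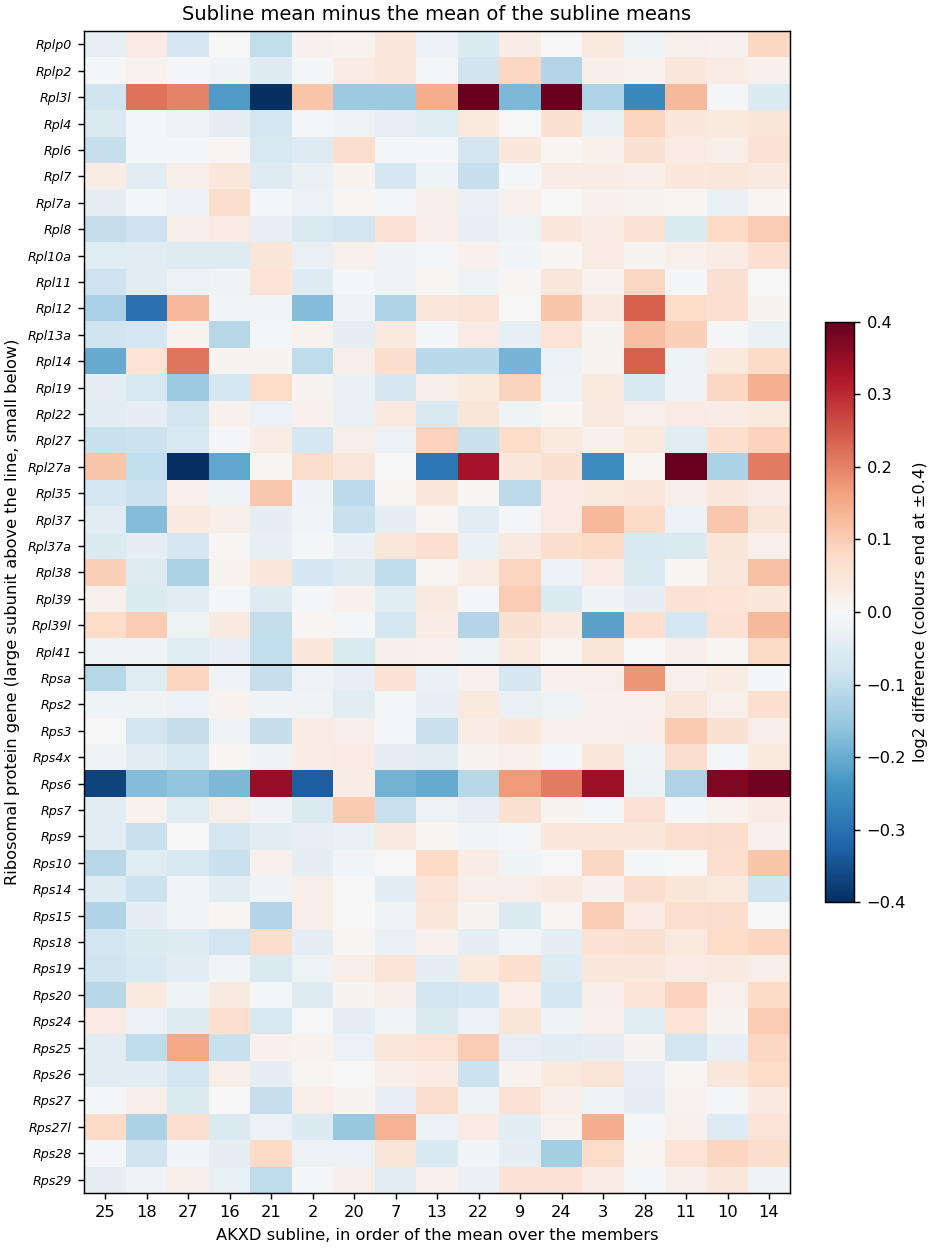
Subline mean minus the mean of the 17 subline means, in log2 units, for the 44 members on array A, with red above and blue below and colours ending at 0.4. The row of Rps6 spans 0.76, Rpl3l and Rpl27a also vary, and most other rows stay pale.

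Small shifts were shared by many members. In each tumour the members' mean deviation was taken over the 44 genes. It ran from -0.13 in tumour 2 of subline 25, where 4 of 44 members lay above their mean, to 0.10 in tumour 3 of subline 3, where 40 did. By subline it went from -0.049 ± 0.069 in subline 25 and -0.043 ± 0.037 in subline 18 to 0.041 ± 0.032 in subline 10 and 0.058 ± 0.040 in subline 14 (n = 3 each, SD). The low mean of subline 25 rested on its tumour 2: tumours 1 and 4 had -0.028 and 0.007, with 13 and 29 of 44 members above their mean, and without tumour 2 the mean was -0.011, above that of subline 18. In subline 14, 37 of 44 members lay above the mean of the other sublines, where 51.3% of all probe sets did. In subline 25, 7 did, where 50.1% of all probe sets did. Both sublines were chosen as the ends of the order of the members' mean, so these counts and those that follow are no separate evidence. Many members also moved together across tumours, and the count of subline 25 includes its tumour 2. No member was called by limma in subline 14, where 0.00884% of all probe sets were called higher and 0.0133% lower. None was called in subline 25 either, against 0.00442% higher and 0.0% lower. At an unadjusted p under 0.05 there were 5 higher members in subline 14 (3.61% of all probe sets) and 4 lower ones in subline 25 (3.07%). The tumours of the outer and the middle sublines overlapped.

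Over the 946 pairs of members the median Pearson correlation across the 52 tumours was 0.234, with quartiles of 0.0721 and 0.374, and 790 pairs were above 0. With the mean of the other 43 members, 20 members had r above 0.5. Rps18, at the head of the small subunit, had 0.767, Rpl11, which with the 5S RNA can bind Mdm2, had 0.699, and Rpl8 had 0.667. The 5 members under 0.2 were Rps27l (0.154), Rps27 (0.138), Rpl39l (-0.028), Rpl27a (-0.037) and Rpl3l (-0.265). Rps6 had 0.481. These values describe measurements that share an array and its normalization, and were not set beside those of all probe sets.

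The members' mean was positively related to the level of proliferation genes. Its correlation with the score of 7 proliferation genes was 0.472 (Spearman's rho 0.427) over the 52 tumours, 0.407 without the 2 farthest tumours and 0.615 for deviations from the subline means. Of the 44 members, 35 had a positive correlation with that score. The share of all probe sets with one was not computed, so this count does not set the members apart. With the endothelial markers r was -0.396 (rho -0.464, within sublines -0.435), with the macrophage markers -0.304 (rho -0.294, within sublines -0.354) and with the T cell markers -0.250 (rho -0.260, within sublines -0.411). With the luminal markers r was -0.077, rho -0.322 and the value within sublines 0.070, so these did not share a sign. With the Gapdh difference, a sign of RNA quality, r was 0.0900 (rho 0.0535, within sublines 0.216). For the basal, B and plasma cell, adipocyte and muscle lists r lay between -0.182 and -0.022. The part of these in the members' mean was not tested.

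**Figure D5:**
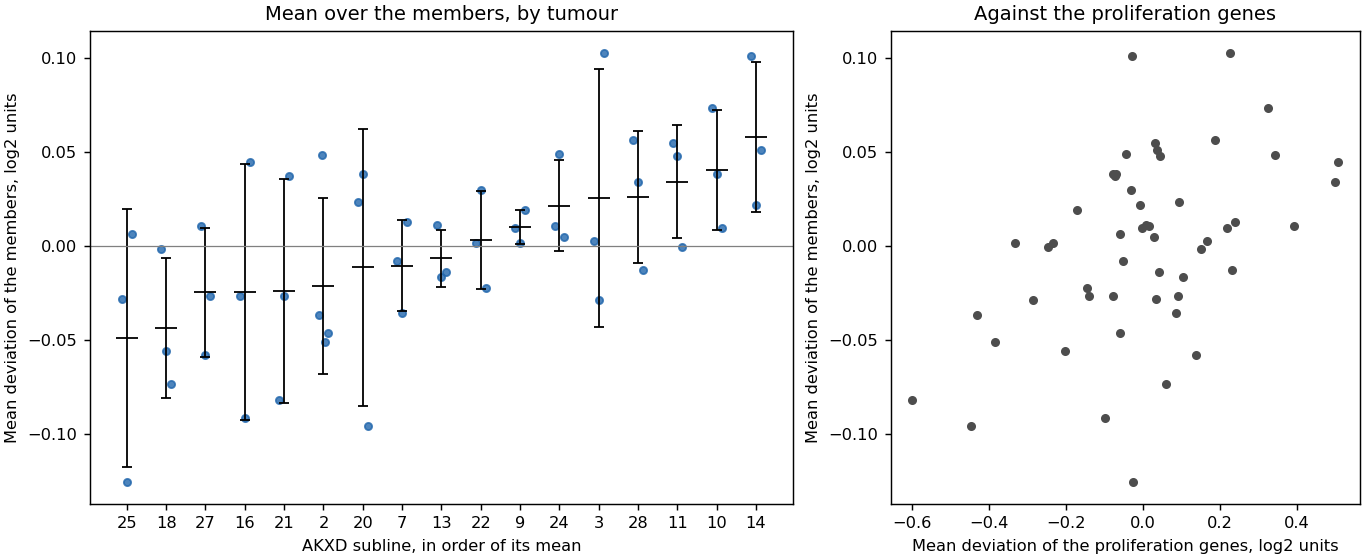
Mean deviation of the 44 members in each tumour, in log2 units, by subline with the mean and SD (left) and against the mean deviation of the proliferation genes (right). Subline means go from -0.049 in subline 25 to 0.058 in subline 14 with overlapping tumours, and the tumours in the right panel rise together with r = 0.472.

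Genes that make, load or control ribosomes were read from the same fit. None was called by limma's F test on array A. Ribosome assembly factors had 0 of 38 called and 5 with an unadjusted p under 0.05, and RNA polymerase I and its factors had 0 of 12 and 1. Translation factors with terminal oligopyrimidine messages had 0 of 17 and 2, and the chaperones of single ribosomal proteins 0 of 5 and 1. Regulators of ribosomal protein synthesis had 0 of 16 and 2, ribosome surveillance genes 0 of 11 and 0, and ribosomal proteins outside the symbol rule, such as Fau and Rps3a1, 0 of 4 and 0. Their median range of subline means lay between 0.287 and 0.350, near the 0.329 of all probe sets. On array B none of these lists had a called gene in limma's F test either, and 2 of its 15 ribosome assembly genes, but no gene of the other lists, had an unadjusted p under 0.05.

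With the arrays that stood apart put back, subline 23 held nearly all the calls of members, on arrays whose controls also departed. The array A of its tumour 3 had a median correlation of 0.223 with the others, and a control for absent RNA read 8.57 on it, against at most 5.21 on the kept arrays. Its Gapdh difference was -0.731. The array B of the same tumour had a median correlation of 0.989 and was kept. On that array A the members' mean deviation was -3.99, and on that of tumour 2 it was -0.16, while tumour 1 had 0.05. Tumour 3 of subline 25 had -0.79, with 2 of 44 members above their mean. In a fit of all 56 arrays, 40 members were called lower and 3 higher in subline 23, where 33.5% of all probe sets were lower and 35.8% higher. These values describe those arrays and were not read as differences between tumours. In that fit 0 of the 44 members were called among sublines by limma's F test, 2 had an unadjusted p under 0.05, and 3.93% of all probe sets were called. The adjusted p of Rps6 was 0.127.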

How the data were processed

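The authors deposited log2 expression values made with RMA, per the submitters' processing notes; version: not given in the sources used here. Arrays A and B are separate tables and were tested separately, without control probe sets, over 22626 and 22511 probe sets. Columns of other series: 0. The log2 values were used as deposited, and RMA as usually run has a quantile step, which can narrow shifts shared by many bright genes. Symbols came from the platform annotation, and positions and promoters from RefSeq GRCm38.p6.

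Sublines were compared with limma 3.58.1 in R 4.3.3 (lmFit, eBayes, 1 mean per subline; F test, and each subline against the unweighted mean of the others), with Benjamini-Hochberg adjustment over all probe sets of the array. An adjusted p under 0.05 is called. Arrays with a median correlation under 0.95 with the rest were left out. The number of arrays limits the precision. A list score averages each gene's deviation from its own mean, in log2 units, over the list. Correlations used two-sided permutation tests with 100000 resamples (numpy), and no p was computed for the members' mean. The resamples shuffled tumours without regard to subline.

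Named were all called members, the 10 with the smallest F test p on array A and all 3 on array B, in each subline with called members the 3 members with the largest differences each way, the stalk proteins, Rps27a, Rpsa and symbols ending in l. Of pathway lists only called genes were to be named. Rpl8, Rpl11, Rpl41, Rps18 and Rps27 were named for their correlations or ranges, Rps9 and Rps28 because all probe sets of the members were read, and Fau, Rps3a1 and genes near Rps6 and Rps28 after their values were seen. The members and lists were chosen with earlier results of these data known. The code was tested on simulated data. Hybridisation batches were not used here.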

Additional observations from a re-analysis of the deposited data

Results flagged for a closer look

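Subline 2, with 4 tumours, was the group searched for a tumour far from the rest, over 24 measures. Chance flags about 1 in 20 of them, and 4 were found. Rpl38 read 13.69 in tumour 3, with the nearest tumour at 13.57. Rps15, a small subunit protein, read 13.22 in tumour 1, below the nearest at 13.28. Rpsa read 13.55 in tumour 2, with the nearest at 13.35. The members' mean deviation was 0.0489 in tumour 2 and at most -0.0368 in the other tumours of the subline. None of these genes was called among sublines.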

How the results depend on the processing

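On array A, 1 member was called among sublines, and 1 in single sublines. Among sublines the count was 0 with all 56 arrays, 19 with array quality weights, where 40.8% of all probe sets were called, and 3 over all probe sets of the members. In single sublines it was 43 with all arrays, 40 with weights, 0 with the Gapdh difference, 0 with the composition scores, 2 with the members' mean as a covariate and 3 over all probe sets. On array B, where both counts were 0, they were 2 and 4 with weights, and 1 in single sublines with all arrays. Leaving out a replicate number gave 0 to 1 in either count on array A and 0 on array B. Leaving out each of the 52 arrays A in turn, a check added after seeing the data, gave 1 among sublines each time and 0 to 1 in single sublines, with 0 without tumour 1 or 3 of subline 21. The F tests of Rps6, Rps9 and Rps28 were called in all 52 of those fits, with adjusted p of at most 0.00191, 0.00747 and 0.0418. Rps6 was not called without replicate 1 (0.191) or 3 (0.134), where 35 and 36 arrays were left. Rps9 was not called without replicates 1 (0.129), 2 (0.0859) or 3 (0.255), and Rps28 without these (0.540, 0.269, 0.361), with all arrays (0.573) or with composition scores (0.0504). The subline 21 differences of Rps15 and Rps29 turned from negative to 0.0134 and 0.0430 with all arrays. In that fit the other sublines included the arrays that stood apart. The Rps28 difference of subline 21 ran from -0.0170 to 0.152 when a replicate number was left out. Tumours with the same replicate number did not deviate together (median correlation 0.000675 on array A, 0.0156 on array B), and with the replicate block 1 member was called on array A among sublines, 1 in single sublines, and 0 and 0 on array B.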
